A study of Mus musculus with 2 samples.

Results

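The genes described here are the semaphorins and ephrins, which are guidance ligands, and the plexins and Eph receptors that bind them. They were taken by symbol, as every probed gene whose name starts with Plxna, Plxnb, Plxnc or Plxnd, or with Sema, Efna, Efnb, Epha or Ephb and a number. This gave 51 of 19465 genes: 20 semaphorins, 8 ephrins, 9 plexins and 14 Eph receptors, of which 9 were of the A class and 5 of the B class. All 51 passed the filter on low counts in the comparison of regions.

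Semaphorins are secreted or membrane-bound proteins that repel or attract growing axons and migrating cells. They act through plexins, often with a neuropilin as co-receptor. Ephrins sit on the surface of one cell and bind Eph receptor tyrosine kinases on the next, so that both cells are signaled at the contact. In the cerebellum and brainstem these families are best known for axon routing, and in epithelia, vessels and carcinomas for the sorting of cells and the shaping of borders.

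The data were Visium CytAssist spatial transcriptomes of fixed mouse cerebellum with a breast tumor grown from injected HP organoids. There was 1 condition, without treatment, and 2 biological replicates, each a single section 5 µm thick, so the comparisons lie between regions of a section. HP stands for human HER2 V777L with PIK3CA H1047R. Per the study's methods, the HER2 transgene is driven by an actin promoter behind a Lox-STOP-Lox element, tumors were started by Cre adenovirus in the mammary gland, organoids grown from them carried luciferase, and the injected mice were immunocompetent and 5 months old. Both samples are labelled with a B6-HP organoid line, but the title of replicate 1 says HP-F1 and that of replicate 2 says HP-B6, and what F1 stands for is not explained. A Visium spot covers several cells, and fewer cells of a type in a spot cannot be told apart from less RNA in each cell.

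Section 1 had 3406 spots under tissue with a median of 9734 UMIs (unique molecules counted), and section 2 had 4017 spots with a median of 12390. The sections shared 3096 spot barcodes, which mark positions of the array. Spots were classed by the ratio of tumor markers (epithelial and collagen genes) to neural markers into tumor, mixed and neural spots, and spots high in Arg1 along the tumor formed the Arg1-high edge. Tumor held 705 spots in section 1 and 646 in section 2, the edge 236 and 331, mixed spots 570 and 586, and neural spots 1800 and 2349. The macrophage markers summed to 5281 and 2935 CPM (UMIs of a gene scaled to a fixed total) in the edge, against 268 and 355 in neural spots. Median UMIs per spot were 55396 and 42773 in tumor, 20277 and 20883 in the edge and 7816.5 and 9834 in neural spots. Higher and lower below therefore refer to a gene's share of the UMIs, and counts per spot were not compared.

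The tumor label was checked against epithelial markers, which did not bear it out in section 1. There the 6 epithelial genes summed to 38.1 CPM in tumor spots, against 9976 in section 2, while collagen genes summed to 54254 and 507 CPM. Fibroblast markers were at 1722 and 89.6 CPM and T cell markers at 213 and 8.06 CPM. The tumor of section 1 is therefore called a collagen-rich mass below, and that of section 2 an epithelial mass. Whether the mass of section 1 holds tumor cells cannot be told from these markers. Below, tumor names the region cut by the marker ratio. Calls for the tumor region span these unlike masses, so they are not replicated results of an epithelial tumor. The neural spots also differed, with brainstem neuron markers at 2438 CPM in section 1 and 1445 in section 2, and Purkinje cell markers at 755 and 2391.

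**Figure D1:**
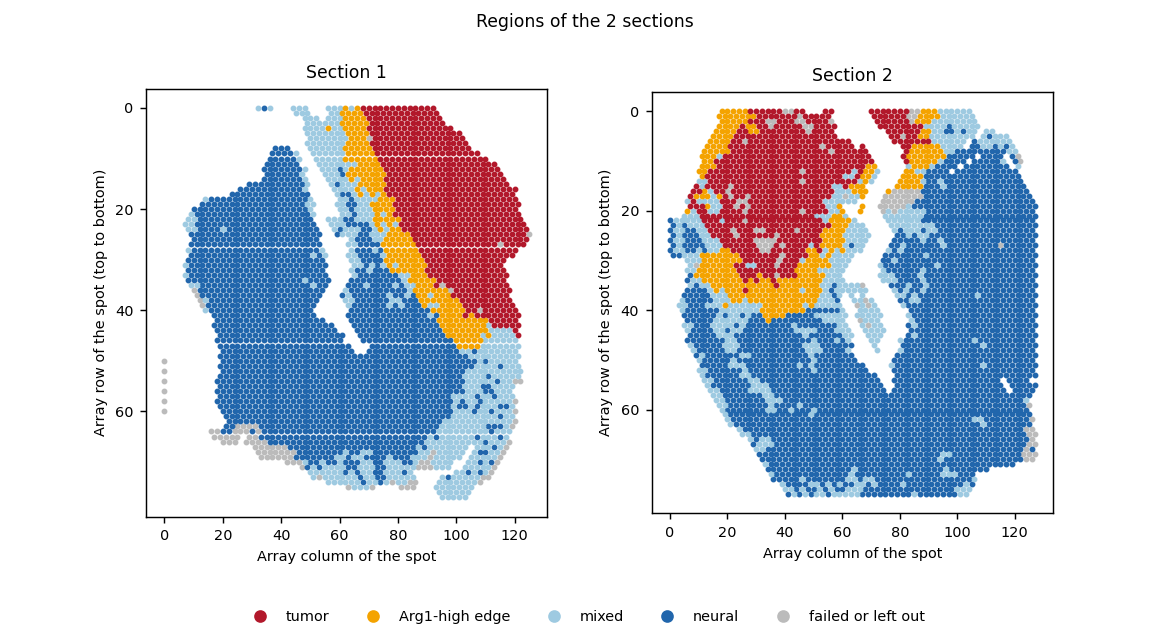
Each dot is a spot at its array column and row, colored by region, for section 1 (left) and section 2 (right). The 236 and 331 spots of the Arg1-high edge form a rim between the tumor and the mixed and neural spots.

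To show what kind of promoter these genes have, 4 are printed: those of Epha1 and Ephb4, which were higher in the tumor, and of Epha6 and Plxnb3, which were lower. They are RefSeq sequences of GRCm38.p6, 5′ to 3′ on the gene's strand, from 250 bases before the start of transcription to 50 after it. Capitals mark GGGCGG, the GC box, in either direction (GGGCGG or CCGCCC).
Epha1, chr6:42373219-42373518, minus strand: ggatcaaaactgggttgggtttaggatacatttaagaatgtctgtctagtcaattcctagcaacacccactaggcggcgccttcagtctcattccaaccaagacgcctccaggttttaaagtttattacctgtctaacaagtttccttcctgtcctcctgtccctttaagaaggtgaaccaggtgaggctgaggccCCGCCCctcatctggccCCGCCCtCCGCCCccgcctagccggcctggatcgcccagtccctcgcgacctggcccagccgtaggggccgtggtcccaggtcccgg
Ephb4, chr5:137349859-137350158, plus strand: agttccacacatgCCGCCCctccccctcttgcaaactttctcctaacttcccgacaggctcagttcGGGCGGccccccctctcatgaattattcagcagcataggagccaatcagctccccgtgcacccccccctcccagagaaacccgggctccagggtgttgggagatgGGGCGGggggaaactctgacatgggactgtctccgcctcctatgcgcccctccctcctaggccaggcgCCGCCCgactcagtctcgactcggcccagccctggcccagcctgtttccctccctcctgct
Epha6, chr16:60605482-60605781, minus strand: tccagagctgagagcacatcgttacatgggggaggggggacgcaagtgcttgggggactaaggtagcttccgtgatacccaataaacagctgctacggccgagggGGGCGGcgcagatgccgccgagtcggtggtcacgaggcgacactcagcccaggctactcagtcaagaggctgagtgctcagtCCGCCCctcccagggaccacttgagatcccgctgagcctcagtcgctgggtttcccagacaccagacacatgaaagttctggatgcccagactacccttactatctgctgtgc
Plxnb3, chrX:73756853-73757152, plus strand: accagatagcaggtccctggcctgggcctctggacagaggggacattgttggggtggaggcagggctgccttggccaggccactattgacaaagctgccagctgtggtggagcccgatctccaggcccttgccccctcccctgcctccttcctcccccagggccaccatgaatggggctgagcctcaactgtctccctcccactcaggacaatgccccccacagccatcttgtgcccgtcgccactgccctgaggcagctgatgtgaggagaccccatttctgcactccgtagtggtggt
The promoter of Epha1 held 3 GC boxes, that of Ephb4 held 4, that of Epha6 held 2 and that of Plxnb3 held none. Of the 51 members, 45 had a promoter in the table, 59 promoters in all, and 74.6% of these held a GC box, against 35.7% of all 32851 promoters. All promoters cover 27025 genes, more than the 19465 probed, while the members were all probed and passed the filter. The shares thus compare unlike sets. The share was 81.8% of 11 promoters for members higher in the tumor and 66.7% of 15 for members lower in it. TGACTCA, the AP-1 site, was found in 3.4% of the members' promoters and 5.2% of all, and CACGTG, an E-box, in 6.8% and 7.2%. A match of letters is not a bound site, and a window without one says nothing of the factor.

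The first question was which ligands and receptors separate the tumor from the neural tissue around it. UMIs were summed by section and region and compared with the section as a block by edgeR's quasi-likelihood test, and a gene was called at a Benjamini-Hochberg adjusted p below 0.05 over all 19047 genes tested. Between tumor and neural spots 26 of the 51 members were called, 11 higher and 15 lower in the tumor. All 26 had the same direction in both sections, as did 40 of the 51. A call rests on these same values, so that agreement, or tumor and neural values lying apart, is not further support. The share of all genes with either was not counted. Over all genes 31.2% were called, 14.8% higher and 16.3% lower. The median log2 fold change was -0.43 over the members and -0.10 over all genes. By family, 1 semaphorin rose and 7 fell, 3 ephrins rose and 1 fell, 3 plexins rose and 2 fell, and of the Eph receptors 4 rose and 5 fell. Probes differ in number and efficiency between genes, so levels are compared within a gene only.

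**Figure D2:**
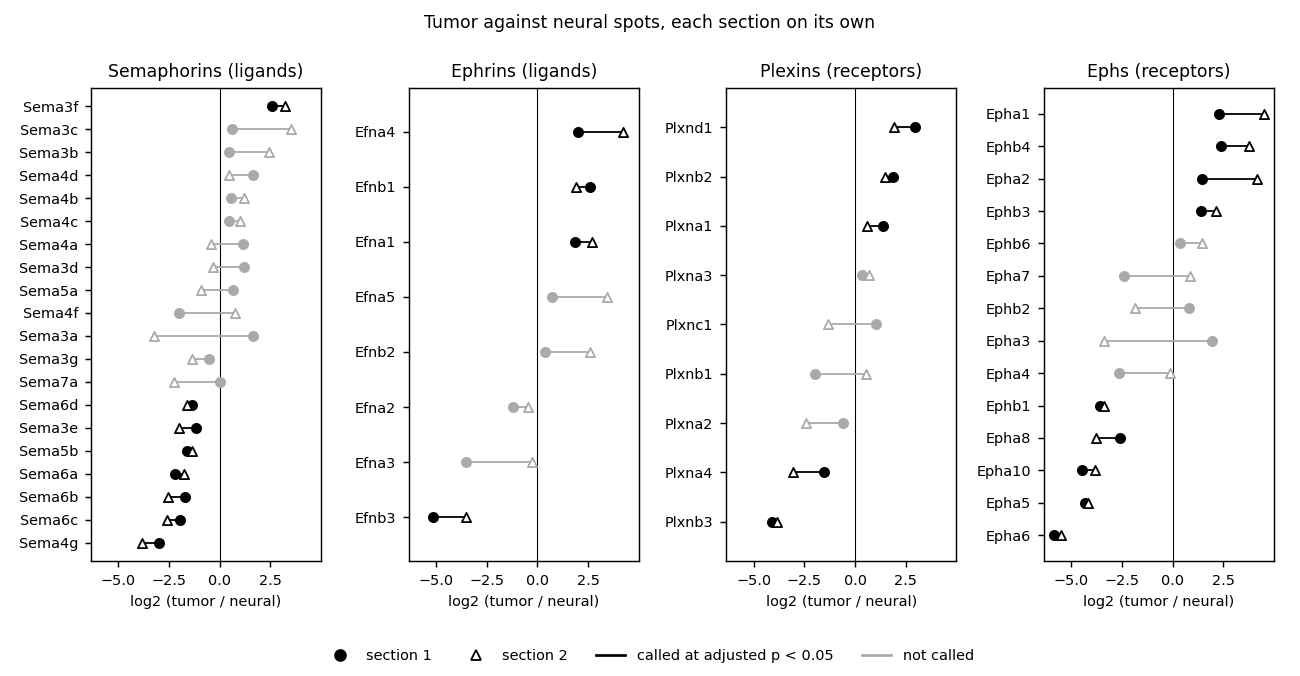
The x axis is the difference in log2 CPM (after adding 0.5 CPM) between tumor and neural spots, and each row is a member, with section 1 as a filled circle and section 2 as an open triangle. Black members, 26 of 51, were called, and gray ones with symbols on both sides of 0, such as Epha3 and Sema3a, ran in opposite directions in the sections.

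Among the ligands that were higher in the tumor, 3 were ephrins. Efna1, a membrane-anchored ephrin that binds EphA receptors, was at 29.3 CPM in the collagen-rich mass of section 1 and 66.8 in the epithelial mass of section 2, against 7.64 and 10.0 in neural spots. Efna4 was at 15.8 and 85.3 CPM in tumor and 3.58 and 4.03 in neural spots, and Efnb1, a transmembrane ephrin, at 28.6 and 29.0 against 4.30 and 7.26. In each of them both tumor values lay above both neural values. The epithelial mass was the higher for Efna1 and Efna4 while the masses were level for Efnb1. The log2 fold changes were 2.32 ± 0.36 (SE) for Efna1, 3.27 ± 0.57 for Efna4 and 2.35 ± 0.31 for Efnb1, with adjusted p of 0.0033, 0.0064 and 0.0018. The only semaphorin called higher was Sema3f, a secreted ligand that signals through neuropilin 2. It was at 67.3 and 188 CPM in tumor and 10.8 and 19.8 in neural spots, a log2 fold change of 2.95 ± 0.32 (adjusted p = 0.00081).

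The receptors that were higher in the tumor were 4 Ephs and 3 plexins. Epha1, an Eph of epithelia, was at 21.1 and 94.0 CPM in tumor and 4.00 and 3.73 in neural spots. Epha2, a receptor of Efna1 that is common in carcinomas, was at 35.1 and 207 CPM against 12.5 and 11.2. Ephb4, best known as the venous receptor of Efnb2, was at 38.1 and 145 CPM against 6.91 and 10.2, and Ephb3 at 37.8 and 50.6 against 14.2 and 11.3. In each of these 4 both masses lay above both neural values, and the epithelial mass was the higher. Their log2 fold changes ran from 1.74 ± 0.38 for Ephb3 over 2.70 ± 0.69 for Epha2 and 3.12 ± 0.37 for Ephb4 to 3.52 ± 0.55 for Epha1, with adjusted p of 0.014, 0.031, 0.0011 and 0.0040. Epithelial markers were at 27.7 and 4644 CPM in the edge and 14.1 and 112 in neural spots, beside the tumor values given above, and their part in these results was not tested.

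The plexins ran the other way between the masses. Plxnd1, the receptor of Sema3e that is known from endothelium, was at 197 CPM in the collagen-rich mass and 132 in the epithelial mass, against 24.97 and 33.9 in neural spots. Plxnb2, a receptor of class 4 semaphorins, was at 330 and 280 CPM against 89.0 and 98.7. Plxna1, a partner of neuropilins, was at 121 and 73.6 CPM against 45.8 and 48.1. The 3 log2 fold changes were 2.52 ± 0.43, 1.71 ± 0.30 and 1.03 ± 0.28 (adjusted p = 0.0049, 0.0052 and 0.031). Plxna1 lost its call with scaling by library size alone, and Plxna1 and Epha2 lost theirs without the section block. Endothelial markers summed to 292 and 384 CPM in tumor, 436 and 544 in the edge and 267 and 254 in neural spots, and macrophage markers to 2326 and 1452 CPM in tumor. None of the 5 endothelial and 6 macrophage markers was at 0 in any of these libraries. Their part in these results was not tested.

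The largest falls, in Epha6 and Epha5, were in EphA receptors. Epha6 had 3 UMIs in the whole tumor of section 1 and 1 UMI in that of section 2, against 547 and 637 in neural spots. After scaling, its neural level was 374.6 times the tumor level in section 1, with an exact 95% counting interval of 127.5 to 1821.9, and 558.9 times in section 2, with an interval of 99.9 to 22108.7 (adjusted p = 0.00020). Epha5 was at 1.39 and 0.94 CPM in tumor and 37.5 and 25.5 in neural spots, Epha10, a receptor without kinase activity, at 2.27 and 2.06 against 60.4 and 35.8, and Epha8 at 1.83 and 0.99 against 13.7 and 19.8. Ephb1 was at 6.52 and 7.73 CPM in tumor and 82.7 and 85.9 in neural spots. For all 5 receptors both tumor values lay far below both neural values. The log2 fold changes were -4.74 ± 0.41 for Epha5, -4.43 ± 0.32 for Epha10, -3.59 ± 0.43 for Epha8 and -3.57 ± 0.25 for Ephb1, with adjusted p of 0.00036, 0.00022, 0.0011 and 0.00021.

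Efnb3, a transmembrane ephrin of myelin and of the midline, was the 1 ephrin called lower. It was at 4.84 and 8.93 CPM in tumor and 189 and 108 in neural spots, a log2 fold change of -4.43 ± 0.44 (adjusted p = 0.00057). Plxnb3, the plexin of oligodendrocytes, was at 3.04 and 3.14 CPM in tumor and 60.4 and 52.5 in neural spots, and Plxna4, a receptor of class 3 and class 6 semaphorins, at 24.1 and 9.11 against 71.4 and 79.6. Their log2 fold changes were -4.20 ± 0.31 and -2.25 ± 0.43 (adjusted p = 0.00022 and 0.0085). Oligodendrocyte markers went the same way, from 2714 and 2252 CPM in neural spots to 155 and 182 in tumor, as did neural markers, from 20487 and 14533 CPM to 270 and 273. Their part in these falls was not tested.

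All 4 class 6 semaphorins, which are membrane-bound ligands of class A plexins, were lower in the tumor. Sema6c was at 7.96 and 3.87 CPM in tumor and 32.7 and 25.9 in neural spots, Sema6b at 19.3 and 9.06 against 65.3 and 55.8, and Sema6a at 10.3 and 15.7 against 48.8 and 55.2. Sema6d was at 51.6 and 66.7 CPM against 134 and 209. Their log2 fold changes were -2.37 ± 0.30, -2.15 ± 0.33, -2.04 ± 0.25 and -1.51 ± 0.22, with adjusted p of 0.0014, 0.0033, 0.0013 and 0.0026. The 3 other semaphorins that fell belonged to different classes. Sema4g was at 5.16 and 3.05 CPM against 45.4 and 49.9 (log2 fold change -3.56 ± 0.32, adjusted p = 0.00041). Sema5b was at 2.63 and 1.98 CPM against 9.09 and 5.98 (-1.70 ± 0.35, adjusted p = 0.011). Sema3e, the ligand of Plxnd1, was at 6.31 and 7.64 CPM against 14.8 and 32.8 (-1.67 ± 0.32, adjusted p = 0.0078), so that ligand and receptor ran in opposite directions across the same spots.

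The second question was whether the Arg1-high edge is set off in the same genes. Against neural spots 20 members were called in the edge, 8 higher and 12 lower, where 20.9% of all genes were called, 9.37% higher and 11.6% lower. These were 8 of the 11 members that rose in the tumor and 12 of the 15 that fell, and no member was called in the edge alone. The same overlap over all genes was not counted, so it is not a result about the members. The tumor and edge comparisons share their neural libraries, so their values are given side by side and not as separate support. By marker ratio, 154 of the 236 edge spots of section 1 and 234 of the 331 of section 2 were mixed. Another 76 and 88 were tumor and 6 and 9 neural. Edge levels between those of tumor and neural spots can come from how the edge was cut, which was not tested. The median log2 fold change was -0.32 over the members and -0.04 over all genes.

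Plxnd1 was the member with the largest rise in the edge. It was at 193 and 188 CPM there, against 24.97 and 33.9 in neural spots, a log2 fold change of 2.71 ± 0.43 (adjusted p = 0.0068) beside 2.52 in the tumor. Plxnb2, at 283 and 278 CPM, likewise had an edge log2 fold change of 1.58 ± 0.30 (adjusted p = 0.012) close to that of the tumor. Both sections gave nearly the same edge level for these plexins. The ephrins and Ephs of the tumor lay between the mass and the neural tissue in the edge. Epha1 was at 17.2 and 38.4 CPM (log2 fold change 2.64 ± 0.53, adjusted p = 0.017), Ephb4 at 24.0 and 63.9 (2.17 ± 0.36, adjusted p = 0.0080) and Efna4 at 10.9 and 38.7 (2.37 ± 0.56, adjusted p = 0.028). Efnb1 was at 21.5 and 21.9 CPM and Efna1 at 24.3 and 39.5. Their log2 fold changes were 1.93 ± 0.31 and 1.81 ± 0.36 (adjusted p = 0.0071 and 0.014). Sema3f was at 53.5 and 74.4 CPM (2.13 ± 0.32, adjusted p = 0.0055). Of the members called higher in the tumor only, Epha2 was at 32.0 and 145 CPM in the edge. It missed the threshold there (log2 fold change 2.33 ± 0.69, adjusted p = 0.063). Ephb3 (0.84 ± 0.38, adjusted p = 0.18) and Plxna1 (0.77 ± 0.28, adjusted p = 0.10) also missed it, in the same direction as in the tumor.

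The 12 members lower in the edge had smaller log2 fold changes there than in the tumor, from -0.79 for Sema6d to -3.67 for Epha10. Epha6 is left out of that range, since it had 5 and 3 UMIs in the edge (0.89 and 0.43 CPM). Epha5 was at 2.50 and 3.13 CPM in the edge (-3.45), Efnb3 at 35.2 and 34.8 (-2.08), Sema4g at 10.9 and 11.7 (-2.08), Sema6c at 10.7 and 7.40 (-1.71) and Ephb1 at 23.4 and 28.4 (-1.70). Epha8 was at 6.79 and 5.40 CPM (-1.48), Sema6b at 26.1 and 19.9 (-1.41), Plxnb3 at 24.5 and 33.4 (-0.98) and Sema6a at 21.6 and 36.1 (-0.90). Neural markers summed to 4119 and 2905 CPM in the edge, between the tumor and the neural values above, and their part in these falls was not tested. The adjusted p of the 12 ran from 0.0029 for Epha6 and Epha10 to 0.045 for Sema6d. The 3 members called lower in the tumor only were also below neural spots in the edge but missed the threshold. These were Plxna4 (-1.02, adjusted p = 0.14), Sema3e (-0.81, adjusted p = 0.12) and Sema5b (-0.64, adjusted p = 0.27). Without the section block 12 members were called in the edge in place of 20, and the calls of Ephb4, Epha1, Efna1, Efna4, Sema3f, Sema6a, Sema6d and Plxnb3 were lost. With granule-rich and Purkinje-rich spots (described below) alone as neural tissue 14 were called. The calls of Efna4, Efnb3, Sema6a, Sema6b, Sema6d and Plxnb3 were lost. In section 1 those spots still held brainstem neuron markers, at 2422 CPM in granule-rich and 1363 in Purkinje-rich spots. The call of Epha8 was lost with interior spots only, with Arg1-high spots from 1000 CPM and with k-means regions, as was that of Sema6d. Plxnb3 also lost its call under both of the latter settings, Sema6a with k-means regions and Efna4 with mixed spots far from the tumor as neural.

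**Figure D3:**
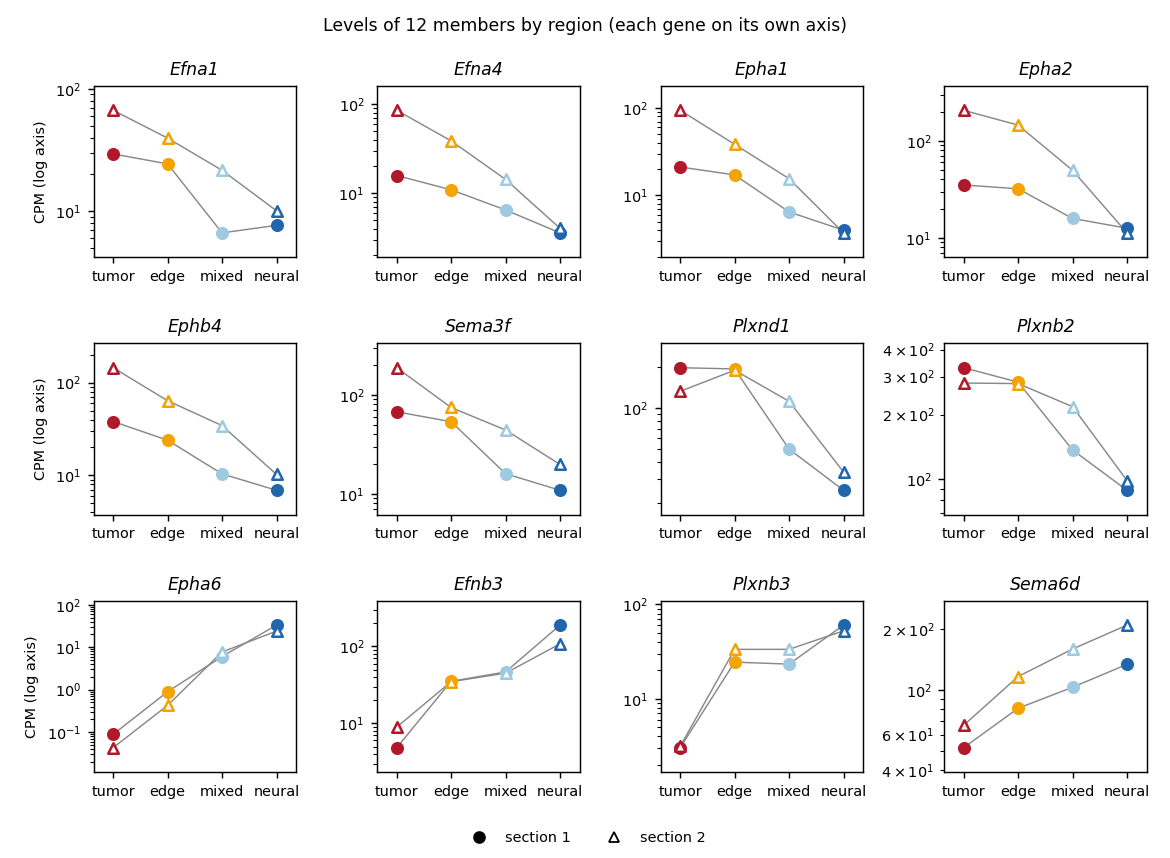
CPM on a log axis for 12 members in tumor, Arg1-high edge, mixed and neural spots, with section 1 as filled circles and section 2 as open triangles, each gene on its own axis. Plxnd1 is as high in the edge (193 and 188 CPM) as in the tumor (197 and 132), while Plxnb3 is already at 24.5 and 33.4 CPM in the edge against 3.04 and 3.14 in the tumor.

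Directly between tumor and edge 4 members were called, all lower in the tumor, where 3.35% of all genes were called, 0.0473% higher and 3.3% lower. Plxnb3 had a log2 fold change of -3.21 ± 0.30 (adjusted p = 0.0097), Efnb3 of -2.35 ± 0.40 (adjusted p = 0.028), Epha8 of -2.11 ± 0.42 (adjusted p = 0.047) and Ephb1 of -1.86 ± 0.23 (adjusted p = 0.012). With edgeR 0 members were called higher in the tumor than in the edge, where 6 had an unadjusted p under 0.05, and with DESeq2 1 was. The call of Epha8 was lost under 5 alternatives and that of Efnb3 under 2. Oligodendrocyte markers were at 1002 and 990 CPM in the edge against 155 and 182 in the tumor, and their part was not tested. By array distance, 31.4% and 39.8% of the outward contacts of the edge spots were with tumor, 54.3% and 48.7% with mixed and 12.1% and 7.2% with neural spots.

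Mixed spots were then added, a region cut by the same marker ratio as tumor and neural spots. In 8 members the level rose in both sections from neural over mixed and edge to tumor spots: Efna4, Efnb1, Epha1, Epha2, Ephb4, Plxnb2, Sema3f and Sema4d. In 11 members it fell in the same order of regions in both sections: Epha5, Epha6, Epha10, Ephb1, Efnb3, Plxna4, Sema3e and the 4 class 6 semaphorins. The share of all genes with such an order was not counted. The order is not a path through the tissue, since only 116 of 570 and 185 of 586 mixed spots lay within 5 steps of tumor. Mixed spots also held Purkinje cell markers at 2533 and 2084 CPM, against 755 and 2391 in neural spots. Choroid plexus markers were at 2018 and 15344 CPM, against 136 and 194. Astrocyte markers were at 5128 and 7814 CPM, against 2109 and 5162, and oligodendrocyte markers at 1607 and 1409, against 2714 and 2252. Mixed and neural spots thus differed in type of tissue, and its part in the order was not tested. Sema4d, a ligand of plexin B receptors, was not called, at 124 and 81.4 CPM in tumor and 40.1 and 60.3 in neural spots (log2 fold change 1.04 ± 0.35, adjusted p = 0.064).

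Distance from the tumor border, counted in steps between neighboring spots, showed the same members in finer bins (here CPM without further scaling). Plxnd1 was at 158 CPM more than 6 steps inside the border of section 1, 230 in the outermost 3 steps of the mass and 145 in the first 2 steps outside it. In section 2 the values were 93.2, 144 and 183 CPM, so the peak lay inside the border in section 1 and outside it in section 2. Arg1 itself was highest just outside the border in both sections, at 1075 and 1428 CPM. Ephb4 fell from 34.7 to 18.4 CPM across the border in section 1 and from 113 to 46.0 in section 2. Plxnb3 rose from 6.44 to 32.7 and from 4.88 to 31.95 CPM over the same step and was at 56.5 and 52.9 CPM by 3 to 4 steps outside. Epha6 stayed low just outside the border and was higher far from it. It was at 1.68 and 0.54 CPM in the first 2 steps outside the border and at 39.0 and 27.6 CPM beyond 20 steps. Cell type markers were not summed by bin, so distance and type of tissue cannot be told apart.

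**Figure D4:**
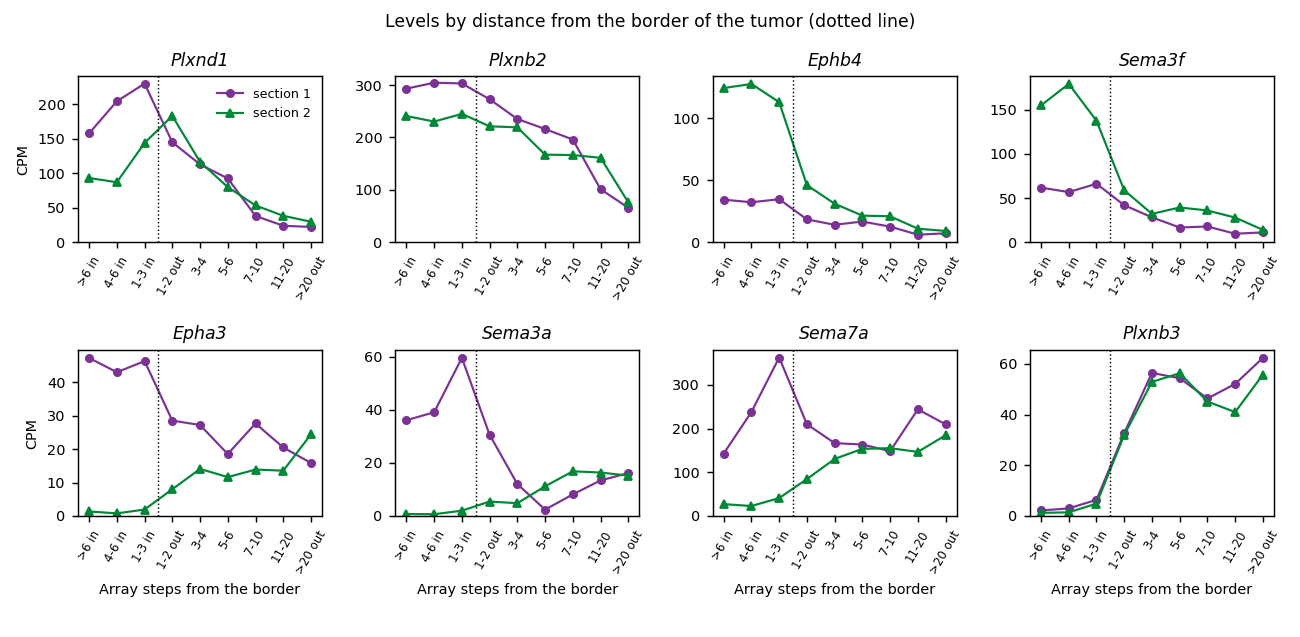
CPM of 8 members by array steps from the tumor border (dotted line), inside the mass to the left and outside to the right, for section 1 (circles) and section 2 (triangles). Plxnb3 runs together in the sections, while Epha3, Sema3a and Sema7a are high inside the border of section 1 and low inside that of section 2.

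The third comparison was between the masses themselves. With 1 section each there is no test, and counting intervals cover counting error only. Of the 51 members, 11 were over 4 times higher in the epithelial mass of section 2 and 6 over 4 times higher in the collagen-rich mass of section 1, while none was over 4 times apart between the neural spots of the sections. Of all 19047 genes the shares were 4.18%, 5.52% and 0.41%. The widest gaps were in a ligand and a receptor that were nearly absent from the epithelial mass. Sema3a, the classical repellent that acts through neuropilin 1, was at 43.6 CPM in section 1 (95% Poisson interval 41.4 to 45.9) and 1.25 CPM in section 2 (0.83 to 1.79), a ratio of 35.0. Epha3 was at 51.1 CPM (48.7 to 53.6) and 1.55 CPM (1.08 to 2.14), a ratio of 33.1.

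Both lay above the neural spots in section 1 and below them in section 2. The tumor log2 fold change against neural spots was 1.63 in section 1 and -3.27 in section 2 for Sema3a, 1.92 and -3.37 for Epha3, and 1.02 and -1.35 for Plxnc1, the receptor of Sema7a. These were 3 of 11 members that ran in opposite directions, and the others stayed within 1 in at least 1 section. None of the 3 was called over both sections (adjusted p = 0.79, 0.74 and 0.97). Plxnc1 was at 45.4 and 9.28 CPM in tumor. Sema7a, a lipid-anchored semaphorin, was at 210 and 36.4 CPM in tumor. In section 1 it reached 363 CPM, here without further scaling, in the outermost 3 steps of the mass. Plxna2, at 44.8 and 9.88 CPM, and Ephb2, at 10.2 and 2.19 CPM, made up the 6 members higher in section 1.

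Of the 11 members higher in the epithelial mass, 4 were ephrins. Efna5 was at 322 CPM there (95% Poisson interval 315 to 329) and 43.6 CPM in section 1 (41.4 to 45.9), a ratio of 7.38, with 26.5 and 29.1 CPM in the neural spots. Efnb2, the partner of Ephb4, was at 111 and 26.5 CPM in sections 2 and 1, and Efna3 at 14.4 and 1.71. Among semaphorins, Sema3c was at 187 and 24.4 CPM and Sema4f at 84.4 and 7.26. Epha7 had the widest gap in this direction, at 70.4 CPM in section 2 and 4.10 in section 1, a ratio of 17.2. Epha4, at 36.7 and 6.84 CPM, and Plxnb1, at 77.7 and 17.1, were also among the 11, as were Epha1, Epha2 and Efna4, which were called over both sections. Efna5, Efnb2 and Sema3c were above neural spots in both sections and were not called (adjusted p = 0.062, 0.086 and 0.092).

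The members not yet given were Sema3b, Sema3d, Sema3g, Sema4a, Sema4b, Sema4c, Sema5a, Efna2, Plxna3 and Ephb6. None was called between regions. Their tumor-against-neural log2 fold changes ran from -0.94 for Sema3g to 1.46 for Sema3b, with adjusted p of 0.087 or more. In all, 25 members were called in none of the 3 region comparisons.

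Within the neural tissue the fourth comparison asked which members follow its cell types. Neural spots in the top 20% of their section for granule neuron, Purkinje cell or oligodendrocyte markers were taken. Spots also in the top 20% for either other set of markers were left out. The groups were summed and each set against the mean of the others. They held 114 and 269 granule-rich, 118 and 283 Purkinje-rich and 282 and 433 oligodendrocyte-rich spots in sections 1 and 2. The granule-rich spots of section 1 were not purely cortical, since brainstem neuron markers stood at 2422 CPM there and granule neuron markers at 1676, against 149 and 4259 in section 2. Sema3b did not pass the filter on low counts here. Of 50 members tested, 4 were called in granule-rich, 6 in Purkinje-rich and 8 in oligodendrocyte-rich spots. Of all 15236 genes, 4.52%, 3.3% and 9.46% were called. In granule-rich spots 2 members were higher and 2 lower, beside 2.9% and 1.62% of all genes. In Purkinje-rich spots 5 were higher and 1 lower, beside 2.7% and 0.604%, and in oligodendrocyte-rich spots 2 were higher and 6 lower, beside 5.32% and 4.14%. These calls depend on the section block. Without it the counts of members were 0, 2 and 0, with 10, 11 and 10 at an unadjusted p under 0.05. With DESeq2 the calls of Sema4a, Plxna4 and Plxnc1 in Purkinje-rich, Epha3 and Sema4f in granule-rich and Epha7 and Ephb2 in oligodendrocyte-rich spots were lost as well. Sema4a in Purkinje-rich spots also lost its call with library size only, and Epha7 without a filter on low counts.

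Purkinje-rich spots were highest in Sema4g, at 110 CPM in section 1 and 138 in section 2, against 28.2 to 42.8 in the other groups (log2 fold change 1.88 ± 0.20, adjusted p = 0.00012). Epha8 was at 36.4 and 58.3 CPM against 8.70 to 22.9 (1.77 ± 0.25, adjusted p = 0.0011). These were the 2 calls that held without the block. Plxna4 was at 122 and 132 CPM against 63.0 to 76.2, and Plxnc1 at 36.4 and 54.0 against 17.7 to 24.5. Their log2 fold changes were 0.87 ± 0.18 and 1.18 ± 0.25 (adjusted p = 0.015 and 0.017). Sema4a was higher in Purkinje-rich spots, at 35.1 and 39.2 CPM (1.10 ± 0.27, adjusted p = 0.044), and lower in granule-rich spots, at 14.5 and 8.92 CPM (-1.60 ± 0.30, adjusted p = 0.011). Astrocyte markers were at 3242 and 10162 CPM in Purkinje-rich, 2827 and 4228 in granule-rich and 2955 and 4271 in oligodendrocyte-rich spots. Choroid plexus markers were at 710 and 55.9 CPM in Purkinje-rich, 90.7 and 65.7 in granule-rich and 114 and 333 in oligodendrocyte-rich spots. The part of either in these calls was not tested.

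Oligodendrocyte-rich spots were highest in Efnb3 and Plxnb3, both of which were also called lower in the tumor than in the edge. Efnb3 was at 297 and 260 CPM there, against 139 and 48.4 in granule-rich and 100.0 and 19.3 in Purkinje-rich spots (log2 fold change 2.27 ± 0.40, adjusted p = 0.021). Brainstem neuron markers were also at 2041 and 1852 CPM in oligodendrocyte-rich spots. They were at 2422 and 149 CPM in granule-rich and 1363 and 444 in Purkinje-rich spots, and their part was not tested. Plxnb3 was at 96.0 and 123 CPM, against 20.8 to 45.9 in the others (1.75 ± 0.23, adjusted p = 0.00087), and was lower in Purkinje-rich spots (-1.28 ± 0.27, adjusted p = 0.021). Another 6 members were lower in oligodendrocyte-rich spots. Epha3 had the largest of these falls, at 1.85 and 8.03 CPM against 21.4 to 41.4 elsewhere (-2.50 ± 0.41, adjusted p = 0.0032), followed by Epha8 (-1.83), Ephb2 (-1.75), Sema3f (-1.59), Sema4g (-1.10) and Epha7 (-0.87), with adjusted p of 0.0020 to 0.047. In granule-rich spots Epha3 and Sema4f were higher (1.45 ± 0.34 and 1.10 ± 0.26, adjusted p = 0.034 and 0.035) and Plxnb1 was lower (-1.18 ± 0.28, adjusted p = 0.037). Epha3 was at 21.4 and 41.4 CPM in granule-rich spots, but Purkinje-rich spots of section 1 were above that, at 29.9 CPM. Sema4f, at 32.9 and 91.7 CPM in granule-rich spots, stood clear of the other groups in section 2 only, since Purkinje-rich spots of section 1 had 32.5 CPM.

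**Figure D5:**
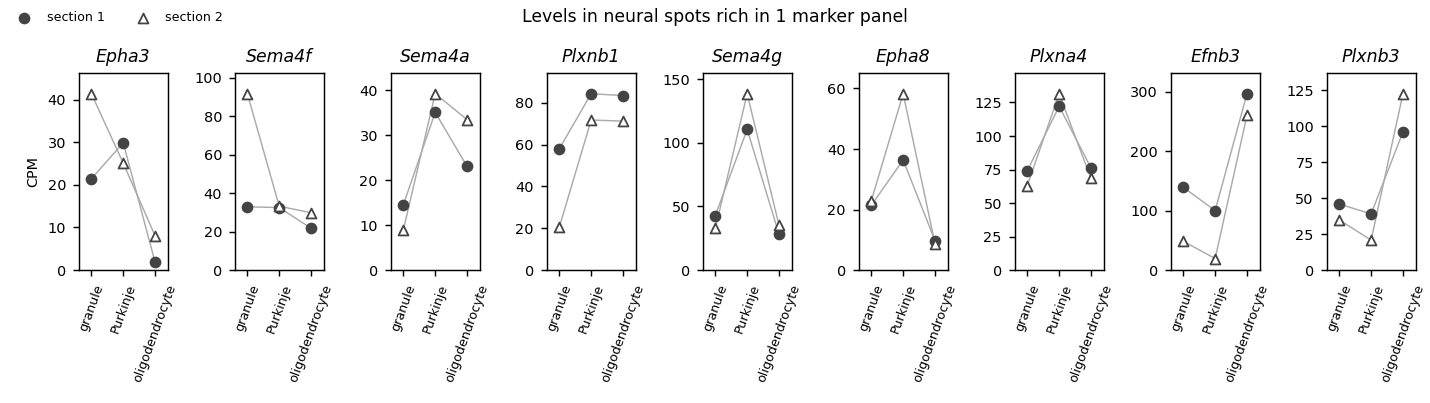
CPM of 9 members in neural spots rich in granule neuron, Purkinje cell or oligodendrocyte markers, for section 1 (filled circles) and section 2 (open triangles). Sema4g, Epha8 and Plxna4 peak in Purkinje-rich spots, and Efnb3 and Plxnb3 in oligodendrocyte-rich spots, in both sections.

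Co-receptors and intracellular partners of these families were counted from a list of 34 genes. Between tumor and neural spots 10 rose and 13 fell, in the edge 6 rose and 8 fell, and between tumor and edge 5 fell. Over all genes the shares were 14.8% higher and 16.3% lower in the tumor, 9.37% and 11.6% in the edge, and 3.3% lower in the tumor than in the edge. The largest rises in the tumor were in cell-surface partners. Met, a receptor kinase that pairs with plexin B, was at 66.3 and 160 CPM against 5.45 and 5.83 (log2 fold change 4.15 ± 0.39, adjusted p = 0.00045). Itgb1, the β1 integrin that also binds Sema7a, was at 702 and 716 CPM against 67.0 and 91.5 (3.19 ± 0.39, adjusted p = 0.0012). Nrp2, the neuropilin of Sema3f, was at 311 and 86.5 CPM against 35.1 and 33.5 (2.40 ± 0.63, adjusted p = 0.034). The largest falls were in signal carriers of neurons. They were in Chn1, a Rac regulator downstream of EphA4, at 3.63 and 5.24 CPM against 265 and 191 (-5.70 ± 0.39, adjusted p = 0.00020), and in the collapsin response mediators Dpysl4 (-4.34 ± 0.45, adjusted p = 0.00072) and Crmp1 (-3.88 ± 0.24, adjusted p = 0.00020). Among the genes called in the edge, Met (2.99), Itgb1 (2.69) and Nrp1 (1.92) had the largest rises and Chn1 (-3.27), Grip1 (-2.64) and Dpysl4 (-2.04) the largest falls. Among those called between tumor and edge, Chn1 (-2.44), Dpysl4 (-2.30) and Chl1 (-1.90) fell most.

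A second list held the other guidance families (netrins, slits and their receptors), of which 23 genes were tested. In the tumor 1 rose and 8 fell, beside 14.8% and 16.3% of all genes, and in the edge, where 11.6% of all genes were lower, 7 fell, among them by the most in Dscam (-2.31), Unc5d (-2.28) and Slit3 (-2.15). Ntn1, a netrin, was the gene that rose, at 114 and 542 CPM in tumor against 35.0 and 49.9 in neural spots (2.58 ± 0.48, adjusted p = 0.0081). The largest falls were in the receptors Dscam (-4.55 ± 0.48, adjusted p = 0.00072), Dcc (-3.39 ± 0.36, adjusted p = 0.00072) and Unc5d (-3.20 ± 0.41, adjusted p = 0.0016). Dcc, a receptor of Ntn1, was also the 1 gene of this list called between tumor and edge (-1.87 ± 0.36, adjusted p = 0.041).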

How the data were processed

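The 2 cerebellar sections of the HP condition (replicates 1 and 2) were analysed. The authors ran Space Ranger 2.1.1 on the reads and section images, and deposited its raw counts, UMIs of each gene at each spot, with no scaling. The labels name mm10. The authors' clusters were not used here.

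Spots with under 500 UMIs or under 10 genes were left out (91 and 18). Each spot's log2 ratio of summed tumor (epithelial and collagen) to neural markers was split per section into 3 classes by Otsu's method. The Arg1-high edge took spots with at least 500 CPM and 5 UMIs of Arg1 within 5 steps of tumor, other than tumor spots more than 2 steps inside it. Arg1-high spots elsewhere (4 and 80) and a small patch (7) were left out. UMIs were summed into 8 libraries (2 sections by 4 regions) of 4767908 to 37600235 UMIs. They were tested with edgeR 4.0.16 in R 4.3.3 (TMM factors 0.841 to 1.39, filterByExpr, robust quasi-likelihood fit, section as block, 3 residual degrees of freedom), with Benjamini-Hochberg adjustment over all genes tested. Regions of a section come from 1 piece of tissue, which pairs them: leaving out the section block raised the common dispersion from 0.0971 to 0.162. The precision is set by the 2 sections rather than by depth. CPM of single genes in the text are counts per 1e6, TMM-scaled unless stated otherwise, and differences within a section use log2(CPM + 0.5). Summed marker CPM and the Arg1 cut are without TMM scaling.

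Members and lists were chosen with earlier results of these data known. Members called in any region comparison in the same direction in both sections, and members beyond 1 on the log2 scale in opposite directions, were named, with the 3 largest changes per direction in each list. Members that differed between the masses or were near the threshold were added after their values were seen. Alternatives were DESeq2 1.42.0, other scalings, filters and region rules, no block, and each section alone. On simulated counts the region fit called 51 of 67 genes changed 4-fold. Those counts had a fixed spread and no difference between sections or masses, so they do not give the power in these data.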

Additional observations from a re-analysis of the deposited data

How the results depend on the processing

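All 26 members called between tumor and neural spots kept their direction under the 11 alternatives and in each section alone, and 24 kept their call throughout. The calls rest on the values of both sections, so the direction in each is not further support. Some alternatives changed the libraries little. A minimum of 1000 UMIs left 37599380 of 37600235 UMIs in the tumor of section 1. Of the 20 in the edge 9 kept their call throughout, and of the 4 between tumor and edge 2 did. Among the neural groups none of the 4 granule-rich, 2 of the 6 Purkinje-rich and none of the 8 oligodendrocyte-rich calls held under all 6 alternatives. Each section alone gives values without a test. One alternative, counting mixed spots far from the tumor as neural, was chosen after seeing the data, and called 28, 19 and 4 members in the 3 region comparisons.

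Scaling by library size alone moved the median of all genes, tumor against neural, from -0.10 to -0.33 (log2). DESeq2 called 35 members there, 19 higher and 16 lower, beside 38.5% of all genes in place of 31.2%. Without the replicate block 12 members were called in the edge. Between tumor and edge, 2 members were called with granule-rich and Purkinje-rich spots alone as neural. The count was 2 with k-means regions, 8 with DESeq2 and 7 with library size only. All genes called there were 386 with interior spots, 370 with k-means regions and 1183 with DESeq2, in place of 638. In granule-, Purkinje- and oligodendrocyte-rich spots the top 10% of a panel called 14, 11 and 16 members and 2948, 1287 and 3498 genes, and the fits without the replicate block 0, 2 and 0 members and 0, 102 and 0 genes (2181, 1267 and 2587 at an unadjusted p under 0.05). DESeq2 called 448 genes in granule-rich and 894 in oligodendrocyte-rich spots, and no filter called 8 members in granule-rich spots. With library size only, the split of higher to lower genes went from 442 and 247 to 639 and 177 in granule-rich and from 811 and 631 to 559 and 758 in oligodendrocyte-rich spots. The causes were not tested.

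Of 11 uncalled members with opposite directions in the sections, the 3 beyond 1 on the log2 scale in both were followed through the alternatives and changed sign in some. The tumor log2 fold change ran from -3.27 to 1.63 over the single sections for Sema3a, from -3.37 to 1.92 for Epha3 and from -1.35 to 1.02 for Plxnc1. Without the replicate block it was 0.58, 0.64 and 0.23, and for Plxnc1 it was 0.14 with interior spots, 0.02 with Arg1-high from 1000 CPM, and 0.03 with both DESeq2 and RLE factors.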

Other observations

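Sema3b, a secreted semaphorin, was low in all regions compared (2.60 to 16.2 CPM in neural, edge and tumor spots) but reached 31.9 CPM in the mixed spots of section 2, where choroid plexus markers summed to 15344 CPM. In spots with at least 20000 CPM of those markers, a cut chosen after the values were seen, Sema3b was at 113 CPM in 21 spots of section 1 (14 UMIs) and 364 CPM in 56 spots of section 2 (220 UMIs), against 3.65 and 8.45 CPM in all other spots, without TMM scaling. No other member was over 4 times higher in these spots in either section. These spots were chosen by the markers of a tissue that no comparison above covers, and no test was made.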
